A study of Mus musculus with 11 samples.

Results

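The genes described here encode the receptors for glutamate and GABA, the main excitatory and inhibitory transmitters of the brain. They were chosen by name: 33 genes for AMPA, NMDA, kainate, delta, metabotropic glutamate, GABA-A and GABA-B receptor subunits, each represented by its brightest probe. All 33 were measured, among 26079 features tested in the series, and all 33 were well above background in each of the 22 channels. A single probe passed the filter on dim probes for 18 of them, and several probes did for 15.

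Cortex of the right hemisphere was compared between 4 groups of C57/Bl6J mice, 5 to 7 months of age, using 11 Agilent arrays read in 2 colours, with 1 mouse per channel. TC mice (n = 6) were GFA2-tTa/TetO-VP16-CREB transgenics with a cryolesion, and WTC mice (n = 5) were wild type with the same lesion. T mice (n = 5) were intact transgenics, and WT mice (n = 6) were intact wild type. The transgene pair expresses VP16-CREB, a version of the CREB transcription factor that is always active, in astrocytes through the GFA2 promoter, a fragment of the GFAP gene that is itself more active in reactive astrocytes. The amount of VP16-CREB in TC and T mice was not analysed here. For the lesion, dry ice was held to the brain surface for 30 s, and the tissue was collected after 3 days. The labels do not say that mice were pooled or how much of the dissected cortex lay inside the lesion.

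Ionotropic glutamate receptors are cation channels assembled from several subunits: AMPA receptors carry most fast excitatory current, and NMDA receptors admit calcium once the membrane is depolarised. Metabotropic receptors act more slowly through G proteins, on either side of the synapse. GABA-A receptors are chloride channels whose subunit make-up decides whether they sit at synapses or outside them, and GABA-B receptors are G protein-coupled pairs of Gabbr1 and Gabbr2. Most of these genes are transcribed mainly in neurons, while Grm3, Grm5, Gabrg1 and Grin2c are also known from astrocytes.

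Values are given in 3 ways. Levels are log2 channel intensities of single mice after normalization, and they are compared only within a gene. The ratio fit estimates each log2 ratio from the paired channels of the 11 arrays with limma, and its p-values were adjusted over all features. The separate-channel fit, a second limma model, also uses the differences between arrays and so has 17 residual degrees of freedom in place of 7. A gene is said to have risen or fallen only where an adjusted p was under 0.05, and the fit is named. In bulk tissue, fewer cells of a type and less RNA per cell cannot be told apart.

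Several mice stood apart in tissue content. The TC mouse of array I held transcripts typical of cerebellum: Gabra6, a GABA-A subunit of cerebellar granule cells that is not among the 33, had a log2 level of 12.07 there, against 5.57 to 6.62 in the other 21 mice, and was well above background in 1 of the 22 channels. The mean of 8 cerebellar genes was 12.62 in that mouse, against 7.41 to 8.81 in the other 21. Its excitatory cortical neuron markers averaged 9.02, against 10.74 to 11.48 in the other 5 TC mice. Genes of microglia and macrophages averaged 11.30 in this mouse, inside the WT range of 11.17 to 11.68. Its fellow TC mice spanned 12.47 to 13.51. Reactive astrocyte genes averaged 9.84 in it, between the T mice (8.89 to 9.17) and the remaining TC mice (11.13 to 12.48). In the main fits it was kept as a TC mouse. A mean of 7 hippocampal genes reached 11.36 in the WTC mouse of array A and 10.50 in the TC mouse of array L, and stood at 10.26 in the T mouse of array F. A mean of 8 thalamic genes was 12.21 and 11.60 in the WT mice of arrays A and F, against 8.05 to 11.49 in the other mice. A mean of 10 striatal neuron genes had medians of 9.92 in TC, 11.74 in WTC, 11.87 in T and 12.53 in WT mice. These lists of regional genes for cerebellum, hippocampus and thalamus were drawn up after values had been seen, and the part of tissue content in the results below was not tested except where a fit without a mouse or with region scores as covariates is given.

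**Figure D1:**
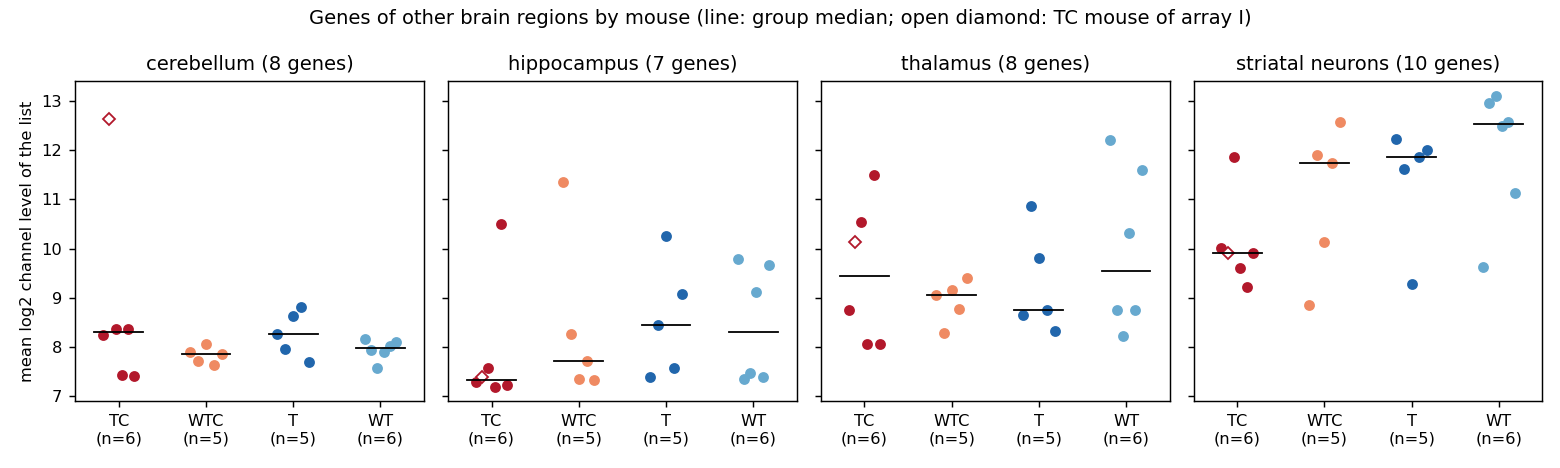
Mean log2 level of gene lists for cerebellum (8 genes), hippocampus (7), thalamus (8) and striatal neurons (10), by mouse, with the groups TC, WTC, T and WT from left to right and a line at each group's median. The TC mouse of array I lies at 12.62 for cerebellum, and the striatal means have a median of 9.92 in TC mice and 12.53 in WT mice.

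The channel 2 labels of arrays I, J and K contradict their titles as to group. Groups follow the titles here, and the alternative readings are given at the end. All WT mice were on slide 1, which held arrays A to F, and arrays I to M were on slide 2. Between 56.6% and 65.3% of the spots in a channel were well above background, none was saturated (0 flags), and precision is limited by how many arrays there are. Each mouse was on 1 array, which makes the spread behind a p-value one between animals.

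Promoter stretches are shown because the transgene is a form of CREB, whose binding site, the CRE, has the palindrome TGACGTCA and the half-site TGACG. Windows from 250 bases before to 50 bases after the annotated start were read from RefSeq (GRCm38.p6) for 23 of the 33 genes, in 30 windows. None of the 23 genes held TGACGTCA, which 1.79% of all 32851 windows hold. The half-site, searched on both strands and also contained in the palindrome, was in 4 of the 23 genes, against 20.8% of all windows. A gene counted if any of its windows held the motif, so the counts by gene and the shares by window are unlike units. The stretches below are in the gene's own direction, with the half-site or its reverse complement CGTCA in capitals; the first, of the obligatory NMDA subunit Grin1, is at chr2:25319163-25319243 (minus strand).
Grin1: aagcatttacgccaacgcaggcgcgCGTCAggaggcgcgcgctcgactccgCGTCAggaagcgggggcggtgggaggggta
Grik2: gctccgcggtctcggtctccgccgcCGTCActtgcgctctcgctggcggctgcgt
Grm8: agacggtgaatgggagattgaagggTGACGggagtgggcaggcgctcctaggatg
Gabrb2: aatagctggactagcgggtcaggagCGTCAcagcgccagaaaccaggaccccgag
The stretch of the kainate subunit Grik2 is at chr10:49788729-49788783 (minus strand), that of the metabotropic receptor Grm8 at chr6:28134416-28134470 (minus strand), and that of the GABA-A subunit Gabrb2 at chr11:42420414-42420468 (plus strand). A match is a description of letters in these windows. In intact mice, where the transgene acts without a lesion, the T minus WT log2 ratios of these 4 genes were -0.23 ± 0.12 for Grin1, -0.19 ± 0.14 for Grik2, 0.13 ± 0.34 for Grm8 and -0.28 ± 0.27 for Gabrb2, and none passed the limma test.

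The first question was what the lesion did to receptor transcripts in wild type cortex. In the limma ratio fit, 26 of the 33 genes had a lower level in WTC than in WT mice, against 49.4% of all features, and the median log2 ratio was -0.315, against 0.003 over all features. No gene passed the ratio fit (0 of 33), in which 0.023% of features passed. At an unadjusted p under 0.05 it counted 8 of the 33, all lower, against 6.93% of features lower. In the separate-channel fit, 10 of the 33 fell, in which 12.2% of features fell, and 0 rose, in which 14.3% of features rose. For 6 genes (Grm4, Gabra4, Gabrb2, Gabrd, Gabrg3 and Gabbr1) every WTC mouse lay below every WT mouse, a pattern shown by 7.35% of features, while no gene had every WTC mouse above, as 9.35% of features did.

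In transgenic mice, 29 of the 33 genes had a lower level in lesioned than in intact animals, TC against T, where 48.7% of features were lower. The median log2 ratio was -0.355, against 0.005 over all features. With the groups of arrays I, J and K read from the channel 2 labels instead, the median was 0.031 and 15 of 33 ratios were negative, so the direction in TC minus T depends on which labels are right. The ratio fit called none of the 33 and 0% of features, and 7 genes, all lower, had an unadjusted p under 0.05, against 4.98% of features lower. The separate-channel fit called 4 genes lower (2.63% of features) and 0 higher (4.72% of features). No gene had TC and T mice apart without overlap (2.81% of features lower, 2.09% higher). With array as a random block, the limma fit of the channels called 4 genes lower with all mice (2.56% of features lower), 5 once the TC mouse of array I was left out (4.52%), and 1, Grik1, when region scores were also added as covariates (0.775%). In WTC minus WT the same 3 fits called 9 genes lower (12.3% of features lower), 13 (16.1%) and 9 (12.6%). Features called in either direction made up 26.7%, 32.3% and 26.8% in those WTC minus WT fits. Without the WT mice of arrays A and F the block fit called 5 genes lower in WTC minus WT, with 6.99% of features lower. Both lesion contrasts and both transgene contrasts are estimated in one model on linked arrays, so their values are set side by side without a correlation.

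**Figure D2:**
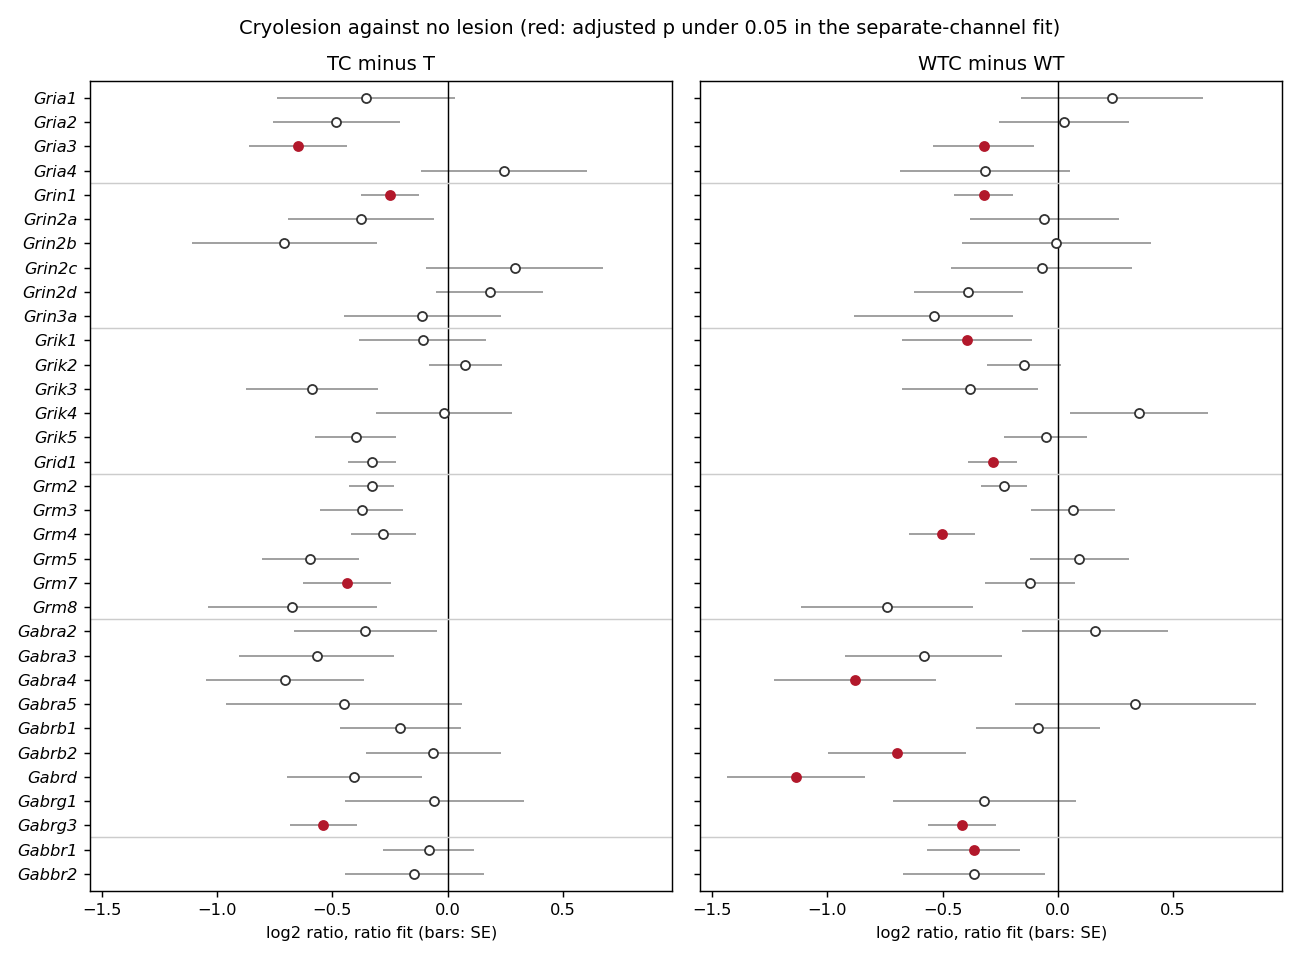
Log2 ratios of the 33 genes in the limma ratio fit, TC minus T on the left and WTC minus WT on the right, with bars of ± 1 SE and points in red where the separate-channel fit had an adjusted p under 0.05. Most points lie left of 0 in both panels (29 and 26 of 33), and Gabrd has the lowest ratio in WTC minus WT, at -1.14.

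Among the AMPA receptor subunits, Gria3 fell after the lesion in both genotypes in the separate-channel fit. Gria3, which joins Gria2 in AMPA receptors of forebrain neurons, had log2 levels from 11.02 to 11.87 (median 11.39) in TC mice, of 10.98, 11.45, 11.46, 11.76 and 11.95 in WTC mice, of 11.75, 12.07, 12.16, 12.21 and 12.33 in T mice and from 11.69 to 12.53 (median 12.09) in WT mice. The lesioned groups overlapped their intact counterparts at the edge only, by 1 or 2 mice. Its TC minus T log2 ratio was -0.71 ± 0.17 (SE; limma adjusted p = 0.0173) in the separate-channel fit and -0.65 ± 0.21 (SE; limma adjusted p = 0.325) in the ratio fit. For WTC minus WT the separate-channel ratio was -0.49 ± 0.17 (SE; limma adjusted p = 0.0393) and the ratio fit gave -0.32 ± 0.22 (SE; limma adjusted p = 0.45). A second probe of Gria3 gave a TC minus T ratio of -0.63, close to the -0.65 of the brightest one. Without the TC mouse of array I, a model of the channels with array as a random block still called it, at -0.60 (limma adjusted p = 0.0254), and with region scores as covariates it did not, at -0.46 (limma adjusted p = 0.244). The WTC minus WT call was lost with slide as a fixed term, at -0.35 (limma adjusted p = 0.185). In the authors' deposited table, Gria3 is the one gene of the 33 with an adjusted p under 0.05 for TC minus T, at -0.69 (adjusted p = 0.041), where 1.97% of that table's entries passed.

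The other AMPA subunits passed neither the ratio fit nor the separate-channel fit in either lesion contrast, although 2 of the 8 separate-channel and random-block fits called Gria2 lower in TC minus T and 1 called Gria4 lower in WTC minus WT. Gria1, abundant in hippocampus and plastic synapses, had log2 levels from 11.29 to 12.83 (median 11.68) in TC, of 11.56, 11.94, 12.29, 12.48 and 13.46 in WTC, of 12.04, 12.15, 12.61, 12.69 and 12.76 in T and from 12.05 to 12.69 (median 12.42) in WT mice. The highest WTC value, 13.46, was of the mouse of array A, which also had the highest hippocampal list mean. Ratios were -0.35 ± 0.39 for TC minus T and 0.23 ± 0.40 for WTC minus WT. Gria2, the subunit whose edited form blocks calcium entry, had levels from 8.40 to 9.23 (median 9.004) in TC, of 8.39, 9.06, 9.16, 9.27 and 9.55 in WTC, of 9.23, 9.32, 9.62, 9.78 and 9.78 in T and from 8.75 to 9.75 (median 9.45) in WT mice, and the TC mice reached the lowest T value and no higher. Its TC minus T ratio was -0.48 ± 0.28 (SE; limma adjusted p = 0.518) and its WTC minus WT ratio 0.03 ± 0.28 (SE; limma adjusted p = 0.968). Gria4, a subunit of fast-gating receptors in interneurons, spanned 10.07 to 12.34 over all mice, with its highest value in the TC mouse of array I.

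Grin1, the subunit that every NMDA receptor needs, fell in the separate-channel fit after the lesion in both genotypes. It had log2 levels from 11.70 to 12.09 (median 11.81) in TC mice, of 11.79, 11.86, 11.91, 12.05 and 12.33 in WTC mice, of 12.003, 12.24, 12.29, 12.43 and 12.49 in T mice and from 12.31 to 12.61 (median 12.48) in WT mice. Of the 5 WTC mice, 1 reached into the range of the WT mice, and TC mice passed the lowest T mouse but none of the others. The separate-channel ratio was -0.37 ± 0.10 (SE; limma adjusted p = 0.0343) for TC minus T and -0.44 ± 0.10 (SE; limma adjusted p = 0.00573) for WTC minus WT. The ratio fit gave -0.25 ± 0.13 (SE; limma adjusted p = 0.471) and -0.32 ± 0.13 (SE; limma adjusted p = 0.22) for the same contrasts. Grin1 was called in WTC minus WT by all 8 of the separate-channel and random-block fits that were run, and in TC minus T by 6 of them. The TC minus T call was lost with slide as a fixed term, at -0.35 (limma adjusted p = 0.0827), and with region scores as covariates, at -0.28 (limma adjusted p = 0.261).

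None of the other NMDA subunits passed the ratio fit or the separate-channel fit. Grin2d was called lower in WTC minus WT by 2 of the 8 separate-channel and random-block fits. The ratio fit on slide 1 alone, with only the WTC mice of arrays A and B, also called it, at -0.72 (limma adjusted p = 0.0292). Grin2b, the subunit that prevails early in development, had levels from 8.95 to 11.47 (median 10.80) in TC, of 10.99, 11.31, 11.68, 11.93 and 12.15 in WTC, of 10.12, 10.81, 11.13, 11.22 and 11.25 in T and from 11.08 to 11.54 (median 11.18) in WT mice, with the lowest TC value in the mouse of array I. Its ratios were -0.71 ± 0.40 for TC minus T and -0.01 ± 0.41 for WTC minus WT. Grin2a, which replaces Grin2b in mature cortex, had levels from 10.29 to 11.20 (median 10.86) in TC, of 10.76, 10.86, 10.91, 11.20 and 11.87 in WTC, of 10.59, 10.83, 10.99, 11.46 and 11.78 in T and from 10.98 to 11.27 (median 11.10) in WT mice. Its groups overlapped, and its ratios were -0.38 ± 0.32 and -0.06 ± 0.32; the sign of TC minus T is not stable, as given at the end. Grin2c, a subunit of astrocytes and cerebellar granule cells, had levels from 10.20 to 12.84 (median 11.22) in TC, of 11.09, 11.16, 11.23, 11.27 and 11.85 in WTC, of 11.26, 11.32, 11.36, 11.81 and 12.05 in T and from 11.45 to 12.46 (median 11.67) in WT mice. Its highest level was in the TC mouse of array I, the mouse with cerebellar transcripts, and the other 5 TC mice reached 11.58 at most. Grin2d spanned 6.43 to 7.92 and Grin3a 7.04 to 9.09 over all mice; Grin3a lowers calcium flow through the receptors it joins.

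Of the 5 kainate and 1 delta subunits, Grik1 and Grid1 fell in WTC mice in the separate-channel fit, and none did in TC mice. Grik1, a channel-forming kainate subunit, had levels of 7.29, 7.50, 7.64, 7.79 and 8.20 in WTC mice and from 8.05 to 8.78 (median 8.25) in WT mice, and a ratio of -0.56 ± 0.20 (SE; limma adjusted p = 0.0452). The ratio fit gave -0.39 ± 0.28 (SE; limma adjusted p = 0.476). Grid1, a synapse-organising relative of the glutamate receptors, had levels of 7.85, 8.32, 8.48, 8.53 and 8.63 in WTC mice and from 8.59 to 8.96 (median 8.72) in WT mice. For each of these genes 1 WTC mouse reached into the WT range. Grid1 reached -0.35 ± 0.13 (SE; limma adjusted p = 0.0498) in the separate-channel fit, near its threshold, and -0.28 ± 0.11 (SE; limma adjusted p = 0.189) in the ratio fit. Of the 8 separate-channel and random-block fits 5 called Grik1 and 4 called Grid1 in WTC minus WT. In TC against T mice Grid1 was at -0.33 ± 0.10 (SE; limma adjusted p = 0.314) in the ratio fit, among the 4 smallest p-values of the contrast, and did not pass. Grid1 was called lower in TC minus T by 2 of the 8 separate-channel and random-block fits. The highest ratio of any of the 33 genes in WTC minus WT was that of Grik4, at 0.35 ± 0.30, a subunit rich in hippocampal CA3. On slide 1 alone, with only the WTC mice of arrays A and B, the ratio fit called Grik4 higher in WTC minus WT, at 0.89 (limma adjusted p = 0.0409). Grik4 stood at 12.88 and 12.28 in these mice, and at 11.99, 11.47 and 11.315 in the other WTC mice. WT mice spanned 11.505 to 11.78. The WTC mouse of array A also had the highest hippocampal list mean. Grik2, Grik3 and Grik5 passed neither fit in either contrast. Over all mice Grik2, whose receptors act at the mossy fibre synapse, spanned 6.84 to 7.76, Grik3 spanned 9.25 to 11.39, and Grik5, which assembles with Grik1 to Grik3, spanned 11.69 to 12.90.

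**Figure D3:**
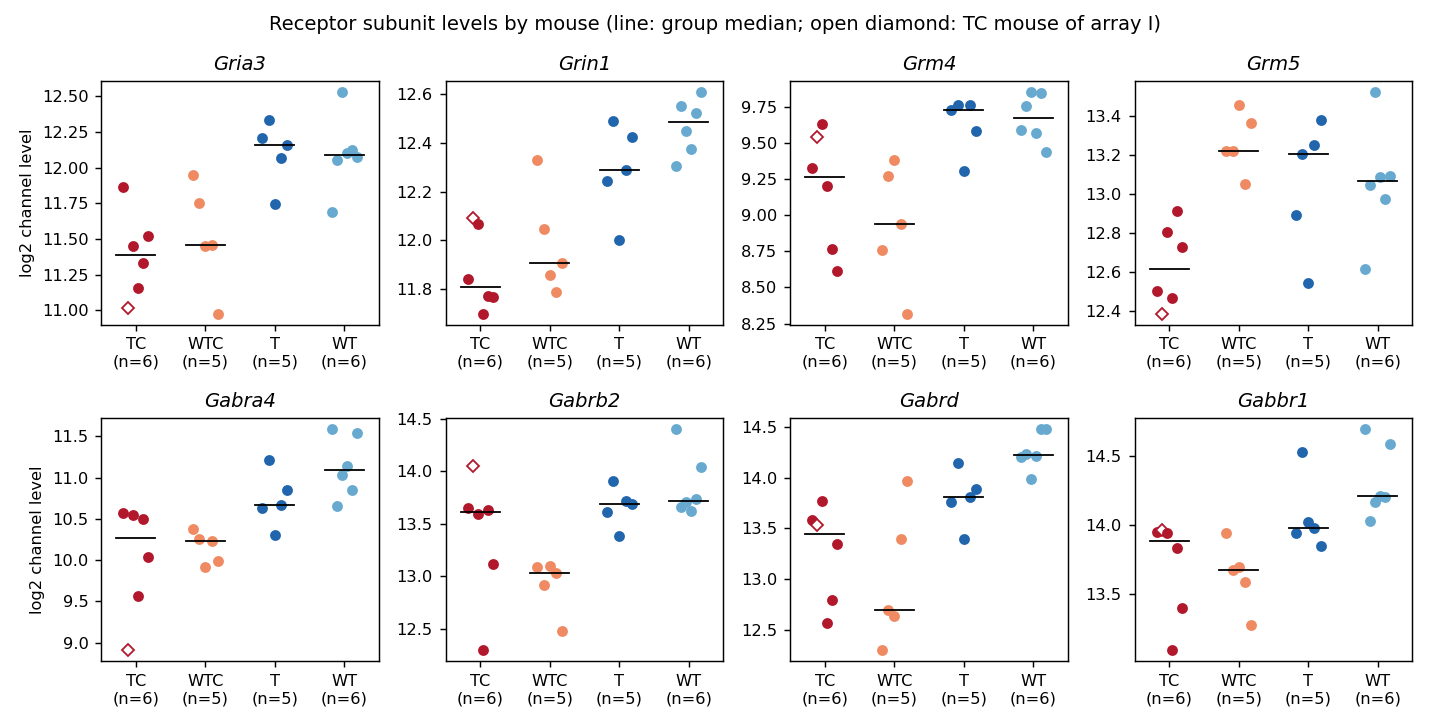
Log2 levels of Gria3, Grin1, Grm4, Grm5, Gabra4, Gabrb2, Gabrd and Gabbr1 by mouse, in the groups TC, WTC, T and WT from left to right, with a line at each median and the TC mouse of array I as an open diamond. The WTC mice lie below all WT mice for Grm4, Gabra4, Gabrb2, Gabrd and Gabbr1, and the TC mice lie below all WTC mice for Grm5.

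The metabotropic receptors were lower in TC than in T mice for 6 of 6 genes, with a median of -0.41, and lower in WTC than in WT mice for 4 of 6, with a median of -0.18. Grm4, a presynaptic group III receptor, had levels from 8.62 to 9.63 (median 9.27) in TC, of 8.32, 8.76, 8.94, 9.27 and 9.38 in WTC, of 9.30, 9.58, 9.73, 9.76 and 9.76 in T and from 9.44 to 9.85 (median 9.67) in WT mice. Every WTC mouse lay below the lowest WT mouse, whereas TC and T mice overlapped. It fell in WTC mice by the separate-channel fit, at -0.67 ± 0.17 (SE; limma adjusted p = 0.00837), and had -0.50 ± 0.14 (SE; limma adjusted p = 0.126) in the ratio fit. Its ratios on the 2 arrays that pair WTC with WT were -0.82 (array A) and -0.49 (array B), and a second probe had -0.52 in the ratio fit. Array A paired the WTC mouse with the highest hippocampal list mean and the WT mouse with the highest thalamic one. Grm7, another presynaptic group III receptor, fell in TC mice, at -0.49 ± 0.14 (SE; limma adjusted p = 0.0393), with levels from 10.15 to 10.97 (median 10.79) in TC mice and of 10.94, 10.97, 11.17, 11.28 and 11.50 in T mice. The ranges of Grm7 overlapped narrowly, and its call was lost with slide as a fixed term (limma adjusted p = 0.0943) and with region scores as covariates (limma adjusted p = 0.134). Grm2, a presynaptic group II receptor, had -0.33 ± 0.10 (SE; limma adjusted p = 0.305) in the ratio fit and did not pass, with levels of 9.17 to 9.83 over all mice.

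Grm3, the group II receptor found on astrocytes as well as neurons, had levels from 10.14 to 11.01 (median 10.61) in TC, of 10.30, 10.80, 11.02, 11.11 and 11.25 in WTC, of 10.74, 10.87, 10.90, 11.05 and 11.14 in T and from 10.44 to 11.37 (median 10.92) in WT mice. Its WTC minus WT ratio was 0.07 ± 0.18 (SE; limma adjusted p = 0.869), close to 0. Grm5, the postsynaptic group I receptor that is also present in astrocytes, had levels from 12.39 to 12.91 (median 12.62) in TC, of 13.05, 13.22, 13.22, 13.37 and 13.46 in WTC, of 12.54, 12.89, 13.21, 13.25 and 13.38 in T and from 12.61 to 13.52 (median 13.07) in WT mice. All 6 TC mice lay below all 5 WTC mice, whereas WTC and WT mice overlapped. Its ratio was -0.60 ± 0.21 (SE; limma adjusted p = 0.345) for TC minus T and 0.09 ± 0.21 for WTC minus WT. Grm5 was called lower in TC minus T by 2 of the 8 separate-channel and random-block fits. Grm8, a presynaptic group III receptor, spanned 8.45 to 11.27 over all mice, lowest in the WTC mouse of array A. It was called lower in WTC minus WT by 1 of these 8 fits.

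Gabrd and Gabra4, both GABA-A subunits, had the lowest WTC minus WT ratios of the 33 genes. Of the 9 GABA-A subunits, 9 had a negative ratio in TC against T mice (median -0.41) and 7 in WTC against WT mice (median -0.42). Gabrd, the subunit of extrasynaptic receptors that carry tonic inhibition, had levels from 12.57 to 13.77 (median 13.44) in TC, of 12.29, 12.64, 12.70, 13.40 and 13.97 in WTC, of 13.39, 13.76, 13.81, 13.88 and 14.14 in T and from 13.98 to 14.48 (median 14.22) in WT mice. Every WTC mouse was below every WT mouse, while TC and T mice overlapped. Gabrd fell in WTC mice in the separate-channel fit, at -1.23 ± 0.24 (SE; limma adjusted p = 0.00184), and was at -1.14 ± 0.30 (SE; limma adjusted p = 0.115) in the ratio fit. On the 2 arrays pairing WTC with WT its ratios were -1.93 (array A) and -1.52 (array B). Array A paired the WTC mouse with the highest hippocampal list mean and the WT mouse with the highest thalamic one. TC minus T was -0.41 ± 0.29 (SE; limma adjusted p = 0.615). In a random-block fit with region scores as covariates that left out the TC mouse of array I, WTC minus WT was still called, at -0.90 (limma adjusted p = 0.00605).

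Gabra4, which pairs with Gabrd outside synapses, fell in WTC mice in the separate-channel fit. It had levels from 8.91 to 10.57 (median 10.27) in TC, of 9.92, 9.98, 10.23, 10.25 and 10.38 in WTC, of 10.30, 10.63, 10.66, 10.85 and 11.22 in T and from 10.65 to 11.59 (median 11.09) in WT mice. WTC and WT mice did not overlap, and the lowest TC mouse was that of array I. The ratio was -0.94 ± 0.26 (SE; limma adjusted p = 0.0125) in the separate-channel fit and -0.88 ± 0.35 (SE; limma adjusted p = 0.213) in the ratio fit. The call was lost without the WT mice of arrays A and F, at -0.70 (limma adjusted p = 0.0735), and with slide as a fixed term, at -0.84 (limma adjusted p = 0.0561). Those WT mice had the highest thalamic list means and the highest Gabra4 levels, 11.59 and 11.54. With region scores, thalamic genes among them, as covariates it was called, at -0.63 (limma adjusted p = 0.0153). Gabrb2, the most widespread beta subunit of cortical GABA-A receptors, had levels from 12.29 to 14.05 (median 13.61) in TC, of 12.48, 12.91, 13.03, 13.09 and 13.10 in WTC, of 13.38, 13.61, 13.69, 13.72 and 13.91 in T and from 13.62 to 14.40 (median 13.72) in WT mice. Its WTC mice lay below all WT mice, while the TC mice spread across the T range, with the highest value in the mouse of array I. It fell in WTC mice, at -0.87 ± 0.22 (SE; limma adjusted p = 0.00975) in the separate-channel fit, with -0.70 ± 0.30 (SE; limma adjusted p = 0.241) in the ratio fit. Without array K the ratio fit called it as well, at -0.87 (limma adjusted p = 0.0237), whereas without the WT mice of arrays A and F the random-block fit did not, at -0.66 (limma adjusted p = 0.0614). Those WT mice had the highest WT levels of Gabrb2, 14.40 and 14.04, and the covariate fit called it, at -0.77 (limma adjusted p = 0.0171).

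Gabrg3, a minor gamma subunit, fell in both genotypes in the separate-channel fit. It had levels from 7.06 to 7.66 (median 7.23) in TC, of 6.98, 7.21, 7.46, 7.50 and 7.51 in WTC, of 7.43, 7.70, 7.88, 7.92 and 8.004 in T and from 7.57 to 8.02 (median 7.73) in WT mice. The separate-channel ratio was -0.53 ± 0.12 (SE; limma adjusted p = 0.0136) for TC minus T and -0.43 ± 0.12 (SE; limma adjusted p = 0.0143) for WTC minus WT. In the ratio fit it had the smallest p of the 33 genes for TC minus T, at -0.54 ± 0.14 (SE; limma adjusted p = 0.289). Yet the 2 arrays pairing TC with T gave -0.78 on array I, whose TC mouse held cerebellar transcripts, and -0.04 on array J. A second probe gave -0.31. With region scores as covariates both calls were lost, at -0.47 (limma adjusted p = 0.0852) for TC minus T and -0.36 (limma adjusted p = 0.0527) for WTC minus WT. Gabrg1, a gamma subunit known from astrocytes and subcortical neurons, had levels from 8.87 to 10.72 (median 9.53) in TC, of 8.98, 9.54, 9.69, 9.73 and 10.58 in WTC, of 9.71, 9.88, 9.96, 10.22 and 10.37 in T and from 10.06 to 10.58 (median 10.14) in WT mice. Its ratios were -0.06 ± 0.39 for TC minus T and -0.32 ± 0.40 for WTC minus WT, and neither passed. WTC minus WT was called without arrays I, J and K, at -0.77 (limma adjusted p = 0.0438). It was also called on slide 1 alone, with only the WTC mice of arrays A and B, at -0.70 (limma adjusted p = 0.0294). The alpha subunits Gabra2 and Gabra3, which set benzodiazepine-sensitive receptor types, spanned 10.39 to 11.80 and 11.01 to 13.60 over all mice, and the beta subunit Gabrb1 10.44 to 12.32. None of these passed the ratio or separate-channel fit in either contrast, nor did Gabra5. Gabra5, rich in hippocampus, ranged from 8.68 to 12.31 within WTC mice alone, highest in the mouse of array A.

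Gabbr1, the ligand-binding subunit of the GABA-B receptor, fell in WTC mice in the separate-channel fit. It had levels from 13.09 to 13.96 (median 13.89) in TC, of 13.28, 13.58, 13.68, 13.70 and 13.94 in WTC, of 13.85, 13.94, 13.98, 14.02 and 14.53 in T and from 14.03 to 14.70 (median 14.21) in WT mice. WTC and WT mice did not overlap. The ratio was -0.59 ± 0.17 (SE; limma adjusted p = 0.0164) in the separate-channel fit, -0.36 ± 0.20 (SE; limma adjusted p = 0.354) in the ratio fit and -0.08 ± 0.20 for TC minus T. The 2 other probes of Gabbr1 gave smaller WTC minus WT ratios, -0.12 and -0.16, so the size depends on the probe. The call was lost without the WT mice of arrays A and F, at -0.42 (limma adjusted p = 0.0935), and with slide as a fixed term, at -0.47 (limma adjusted p = 0.0837). Those WT mice had the highest levels of Gabbr1, 14.70 and 14.59, and the covariate fit called it, at -0.50 (limma adjusted p = 0.0256). Gabbr2, the subunit that couples to the G protein, spanned 10.03 to 11.62 over all mice and passed in no contrast.

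Markers of other cell types moved with the lesion. In WTC against WT mice the median log2 ratio was 2.63 for 10 reactive astrocyte genes and 1.45 for 9 genes of microglia and macrophages, against -0.20 for 8 general neuronal genes, -0.27 for 10 excitatory cortical and -0.28 for 8 inhibitory neuron genes. In TC against T mice the same medians were 1.77, 0.96, -0.21, -0.91 and -0.29. The receptor genes' medians of -0.315 in WTC minus WT and -0.355 in TC minus T stand beside -0.20 and -0.21 in general neuronal genes, and the part of neuron number in them was not tested. Choroid plexus genes had a median of 2.71 in WTC minus WT and 0.76 in TC minus T. The 10 striatal genes were all lower in both lesion contrasts and in T minus WT. Their medians were -0.80 in WTC minus WT, -1.46 in TC minus T and -1.35 in T minus WT. Their part in the receptor ratios was not tested alone, since the fit with region scores as covariates enters striatal, hippocampal and thalamic scores together.

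The second question was whether VP16-CREB changed receptor transcripts. In intact mice, T against WT, no gene of the 33 passed either fit, in which 0% of features passed the ratio fit and 0% fell in the separate-channel fit. In the limma ratio fit 21 of 33 ratios were negative, against 50.8% of features, with a median of -0.117 against -0.002. A single gene had an unadjusted p under 0.05, against 2.92% of features. That gene was Gabrd, at -0.77 ± 0.27 (SE; limma adjusted p = 0.982), and Grin1 was at -0.23 ± 0.12 (SE; limma adjusted p = 0.982). The next smallest p-values were those of Gria4, at -0.54 ± 0.33 (SE; limma adjusted p = 0.982), and Gabra5, at 0.73 ± 0.47 (SE; limma adjusted p = 0.982). No gene had T mice wholly below WT mice (0.242% of features did).

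**Figure D4:**
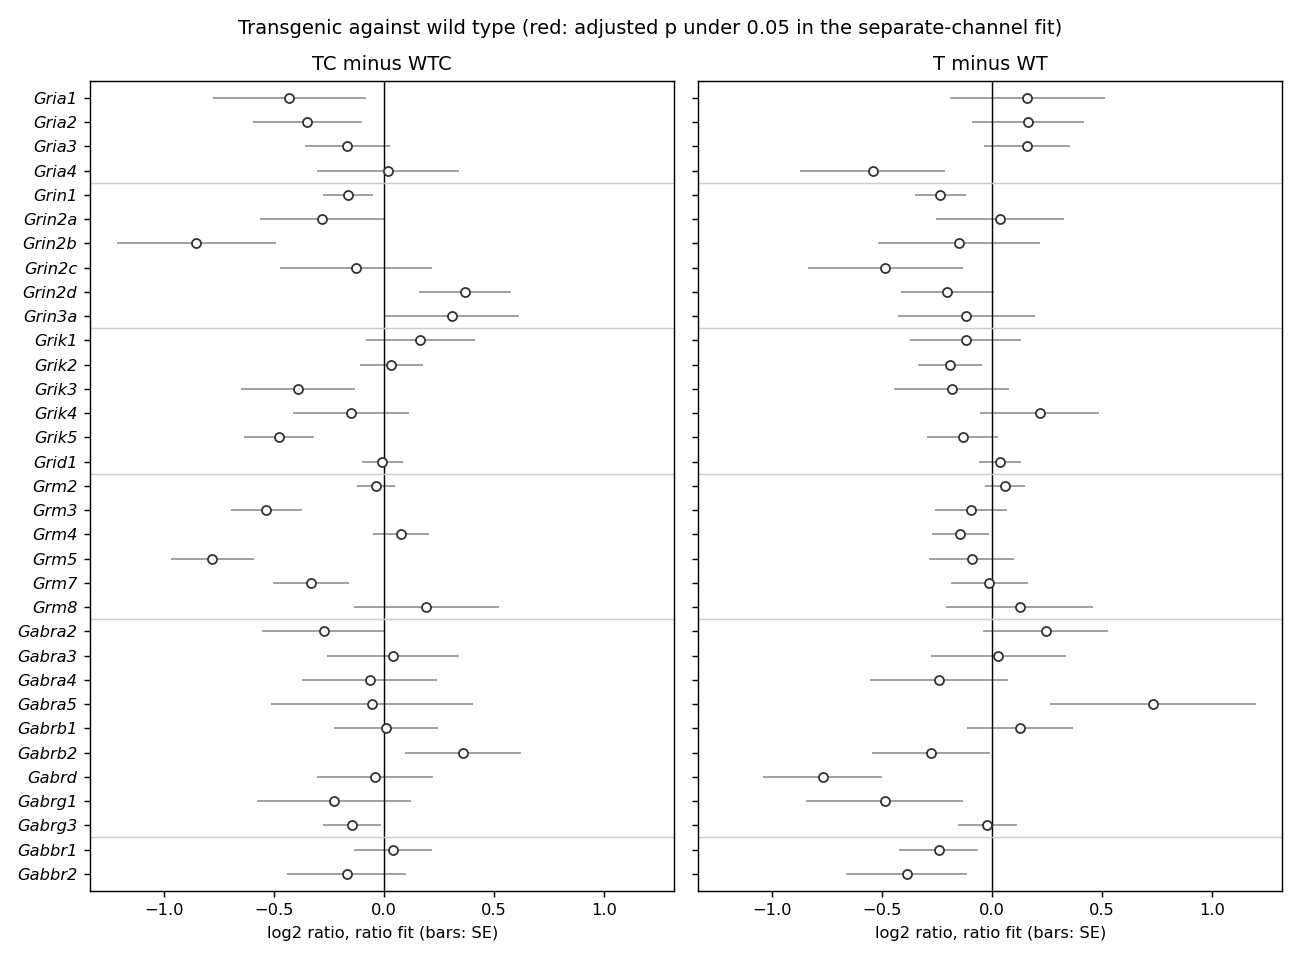
Log2 ratios of the 33 genes in the limma ratio fit, TC minus WTC on the left and T minus WT on the right, with bars of ± 1 SE and points in red where the separate-channel fit had an adjusted p under 0.05. No point is red, and the medians are -0.126 for TC minus WTC and -0.117 for T minus WT.

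In lesioned mice, TC against WTC, no gene of the 33 passed the ratio fit (0% of features passed) or fell in the separate-channel fit (0.027% of features fell). In the ratio fit 22 of 33 ratios were negative, where 55.6% of features were, with a median of -0.126. The median turned to 0.094 with median centring in place of loess, and to 0.048 without arrays I, J and K. In the ratio fit 4 genes, all lower, had an unadjusted p under 0.05, against 8.68% of features lower. Grm5 had the smallest p, at -0.78 ± 0.19 (SE; limma adjusted p = 0.159). It was the one gene of the 33 whose TC mice all lay below the WTC mice, as 0.227% of features did. The 3 arrays pairing TC with WTC gave Grm5 ratios of -0.97, -0.16 and -0.62, and the other 2 probes gave -0.14 and -0.64. With slide as a fixed term in the random-block fit Grm5 was called, at -0.72 (limma adjusted p = 0.0364).

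Grm3 came next, at -0.54 ± 0.16 (SE; limma adjusted p = 0.213), then Grik5, a high-affinity kainate subunit, at -0.48 ± 0.16 (SE; limma adjusted p = 0.236), and Grin2b, at -0.85 ± 0.36 (SE; limma adjusted p = 0.322). Beside these ratios, the striatal list had a median TC minus WTC ratio of -1.83 and the choroid plexus list one of -2.57. The striatal part was not tested alone, since the fit with region scores as covariates enters striatal, hippocampal and thalamic scores together. The choroid plexus part was not tested. In the authors' deposited table the median TC minus WTC ratio of the 33 genes was 0.092, with 9 negative, opposite in sign to the -0.126 of the ratio fit. That table lists Grin2b at -1.16 (adjusted p = 0.0472) and Gabrb2 at 0.80 (adjusted p = 0.00904), both with adjusted p under 0.05, where 11.2% of its entries passed.

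**Figure D5:**
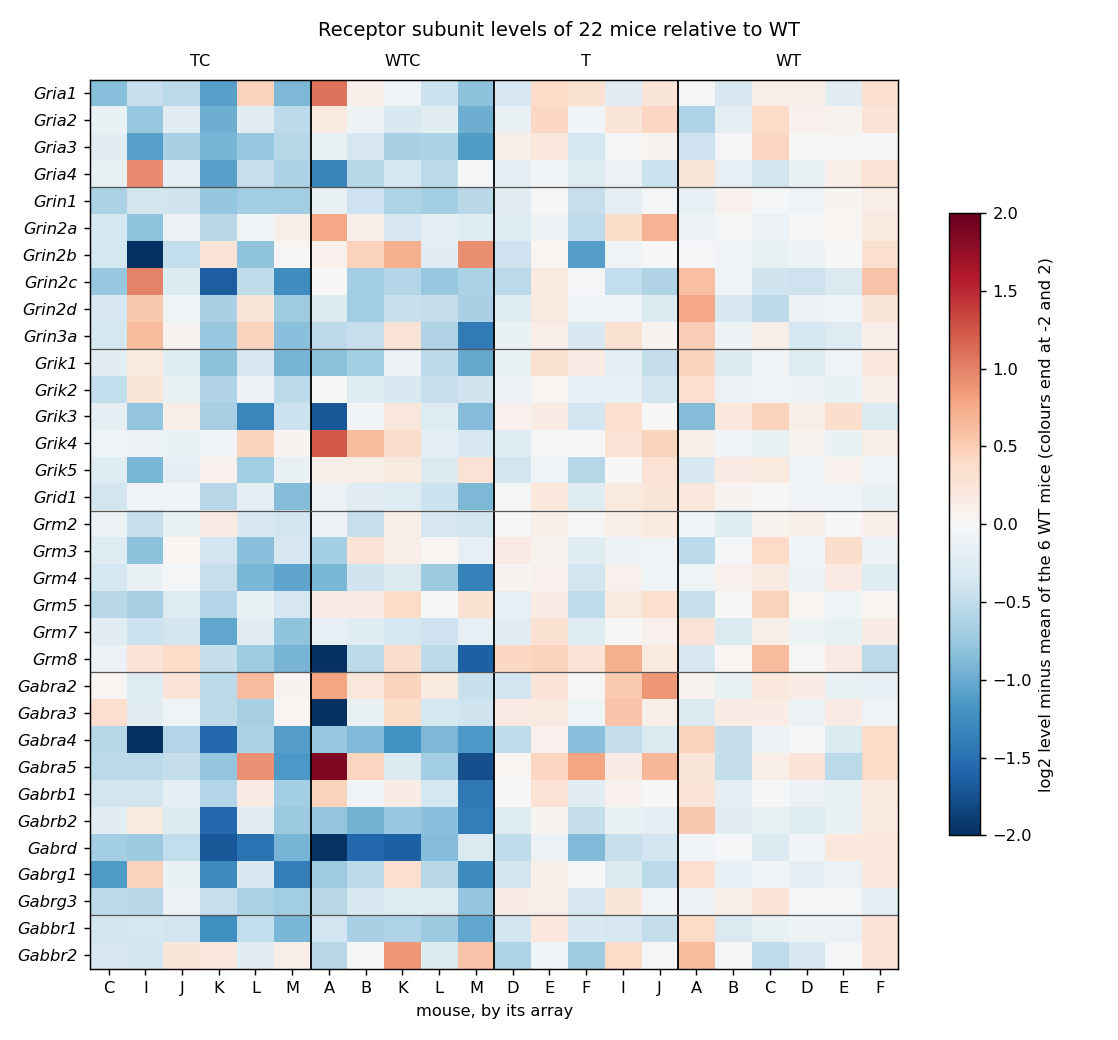
Level of each of the 33 genes in each of the 22 mice minus the mean of the 6 WT mice, on a log2 colour scale cut at -2 and 2, with genes ordered by role and mice by group (TC, WTC, T, WT). The mice of a group differ among themselves: the WTC mouse of array M is lowest of all 22 mice for 10 genes and the TC mouse of array K for 8.

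The third question was whether the lesion effect differed between genotypes, as the difference (TC minus T) minus (WTC minus WT). None of the 33 genes passed (0% of features in the ratio fit, 0% lower in the separate-channel fit), and 1 had an unadjusted p under 0.05 in the ratio fit, against 5.38% of features. It was Grm5, at -0.69 ± 0.24 (SE; limma adjusted p = 0.806). Gabrd leaned the other way, at 0.73 ± 0.34 (SE; limma adjusted p = 0.806), followed by Grin2d, at 0.57 ± 0.27 (SE; limma adjusted p = 0.806), and Grm3, at -0.44 ± 0.21 (SE; limma adjusted p = 0.806). The median over the 33 genes was -0.045 and 17 were negative. A gene that fell in one genotype and not in the other is therefore not shown to differ between them.

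Receptor family genes outside the 33, and genes that anchor these receptors, were counted from lists chosen with earlier results of these data known. Of 14 such receptor genes 8 were measured. In WTC minus WT 6 were lower and 2 higher, with a median of -0.143, against -0.315 for the 33. In TC minus T 4 were lower and 4 higher, with a median of 0, against -0.355 for the 33. The separate-channel fit called 1 lower in WTC minus WT (12.2% of features) and 0 in TC minus T (2.63%). Of 40 excitatory scaffold and auxiliary genes 39 were measured, and 31 were lower in WTC than in WT mice and 35 lower in TC than in T mice. The separate-channel fit called 9 lower and 0 higher in WTC minus WT, where 12.2% of all features fell and 14.3% rose. In TC minus T it called 5 lower and 0 higher, where 2.63% fell and 4.72% rose. Shisa9, an AMPA receptor partner, had -0.73 ± 0.15 (SE; limma adjusted p = 0.00267) in WTC minus WT, and Shank2, a master scaffold of the postsynaptic density, had -0.44 ± 0.08 (SE; limma adjusted p = 0.00408) in TC minus T. Of 14 inhibitory scaffold and auxiliary genes the fit called 6 lower and 2 higher in WTC minus WT. In TC minus T it called 1 lower and 1 higher. The 2 higher in WTC minus WT are about the share of all features that rose, 14.3%. Gabarapl1, of the GABA-A receptor-associated protein family, fell, at -0.54 ± 0.14 (SE; limma adjusted p = 0.00797), and its relative Gabarap rose, at 0.42 ± 0.09 (SE; limma adjusted p = 0.00226), as did the GABA-B partner Kctd12, at 0.78 ± 0.19 (SE; limma adjusted p = 0.00758).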

How the data were processed

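RNA of 22 mice was measured on 11 arrays of 2 colours. Per the file headers, the authors deposited median pixel intensity for spot and background, from Feature Extraction (version 10.7.3.1), not normalized. The deposited LogRatio column, a log10 ratio of red over green per the file headers, served only as an alternative. A further deposited table holds the authors' limma comparisons, 3 in number, as ratios taken to be log2 (no source used here gives the base) with adjusted p-values. The p column for WTC minus WT was not read, because some of its numbers exceed 1.

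Normexp (offset 50) in limma (version 3.58.1, R version 4.3.3) served as background correction. Median signals were used in place of the planned mean signals, since these were the ones at hand. Ratios were normalized by loess within arrays, with control and outlier spots at weight 0, and spots of a probe were averaged. A probe was kept where 5 or more of 22 channels were well above background (35549 probes), and for each gene the brightest was used (26079 features). The ratio fit used lmFit and eBayes with a dye term and a coefficient for each group other than WT (7 residual degrees of freedom), two-sided, with Benjamini-Hochberg adjustment over all features. The separate-channel fit used Aquantile values and an intraspot correlation of 0.317. The random-block fit treated array as a random block (correlation 0.295). Levels per mouse had each probe's dye effect removed.

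Genes and lists were chosen with earlier results of these data known. All 33 genes were to be accounted for. Statistics were to be given for those that passed, or else for the 4 with the smallest p, and always for Gria1, Gria2, Grin1, Grin2a, Grin2b, Grin2c, Grm3, Grm5, Gabrd, Gabrg1 and Gabbr1. Pathway genes were named by smallest p. The alternatives were other background corrections, normalizations, filters and probe rules, array weights and no dye term. Slide as a fixed term in the ratio fit, other array subsets and leaving out each array were also planned. Fits with slide, with region scores or without single mice other than the TC mouse of array I and the T mouse of array F were added after seeing the data. The scripts were tested on simulated data.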

Additional observations from a re-analysis of the deposited data

Results flagged for a closer look

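Within the 4 groups, the highest or lowest mouse of each of the 33 genes was tested for a gap to the rest of its group; chance gives such a gap in about 1 in 20 tests. A gap was found for 5 genes, each at a highest mouse. Over 33 genes in 4 groups, that is no more than chance would give. In TC mice both gaps belong to the mouse of array L, whose hippocampal list mean was 10.50: Grik4 was at a log2 level of 12.11, against 11.52 to 11.70 for the remaining TC mice, and Gabra5 was at 11.36, against 9.30 to 9.96. In WTC mice Grin2c was at 11.85 in the mouse of array A, whose hippocampal list mean was 11.36, against 11.09 to 11.27 in the others. In T mice Gabbr1 was at 14.53 in the mouse of array E, against 13.85 to 14.02. In WT mice Grin2b was at 11.54 in the mouse of array F, against 11.08 to 11.21. The part of tissue content in these gaps was not tested.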

How the results depend on the processing

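The limma ratio fit called 0 of the 33 genes in every contrast, and 83 of 104 recounts under other settings, pooled over all contrasts, also gave 0. The recounts that were not 0 were in the lesion contrasts WTC minus WT and TC minus T, apart from 1 in TC minus WTC. Leaving out each array in turn gave 0 to 1 called genes for WTC minus WT and 0 to 0 for the other 4 contrasts. The 1 gene, Gabrb2, was called without array K, where 1.41% of features were called lower. Counts for WTC minus WT and TC minus T were 1 and 1 with array weights, 10 and 4 in the separate-channel fit, and 9 and 4 with array as a random block. With that block they were 13 and 5 when the TC mouse of array I was left out, 10 and 6 when the T mouse of array F was, 9 and 5 without the WTC mouse of array A, 5 and 6 without the WT mice of arrays A and F, 5 and 2 with slide as a fixed term (and 1 in TC minus WTC), and 9 and 1 with region scores as covariates and no TC mouse of array I. The ratio fit called 3 in WTC minus WT without arrays I, J and K, and 6 on slide 1 alone, 5 of them lower and Grik4 higher. Slide 1 held only the WTC mice of arrays A and B. The share of features called lower was 3.9% and 1.22% with array weights, 12.2% and 2.63% in the separate-channel fit, 3.9% to 17.8% (WTC minus WT) and 0.755% to 4.52% (TC minus T) in the block fits, 1.55% without arrays I, J and K and 2.76% on slide 1 alone. Genes whose WTC and WT levels did not overlap numbered 6, where 7.35% of features lay lower in this way. They numbered 10 without Aquantile normalization, for which the share of all features was not computed. The median ratio moved by less than the spread between mice in 100 of 104 recounts. The exceptions were TC minus WTC, at 0.048 without arrays I, J and K or 0.094 with median centring, and TC minus T at 0.031 and the difference of the lesion effects at 0.193, both under the channel 2 labels. Median centring moved the median of all features to -0.105 in WTC minus WT and 0.085 in TC minus WTC. Of 2100 values of named genes, 2024 stayed on their side of the threshold and 74 came to pass, and 159 changed sign. A reversal was counted only where both values exceeded their SE or one passed: Grin2a in TC minus T, at 0.50 with the channel 2 labels and 0.63 when arrays I, J and K were dropped. The causes were not tested. No paired analysis was possible because the numbers in the labels name single mice and do not recur across groups, beyond the pairing on an array that the ratio fit uses. With 7 residual degrees of freedom, 2 arrays for WTC with WT and for TC with T, and all WT mice on slide 1, small differences were not detectable.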
